A study of Mus musculus with 16 samples.

Results

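The genes described here are 8 genes of MHC class II antigen presentation in the mouse urinary bladder: H2-Aa, H2-Ab1, H2-Eb1, H2-DMa, H2-DMb1, Cd74, Ciita and Ctss. They were chosen by name from the pathway. Their probes were found through the transcript accession that the array design gives to each probe, and 9 probes matched, 2 of them for H2-Ab1 and 1 for each other gene. All 8 genes were among the 26781 genes tested, and all 9 probes were well above background on all 16 arrays, so no member was lost to the filter on dim probes.

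RNA came from the dissected bladder body of C57BL/6 mice, with no transgene or treatment named in the labels. There were 4 groups of 4 mice, with 1 mouse on each 1-colour Agilent array: MAT males and MAT females, which were 12 months old, and AGED males and AGED females, which were 27 to 30 months old. The study asked how ageing changes gene expression in the bladder of each sex. Values are log2 signals less the 75th percentile of their array, so a difference of 1 is a 2-fold difference in signal. Levels are compared between arrays for 1 probe at a time and never between genes.

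Some features of the arrays bear on what follows. All female arrays were on 1 slide and all male arrays on the other, so sex and slide cannot be told apart. Both slides held their MAT arrays in row 1 and their AGED arrays in row 2, which means that age and row cannot be told apart either. AGED male replicate 1 was the dimmest array, with a median signal of 54.5 against 76.5 to 147 on the others and 52.3% of probes well above background against 58.6% to 68.2%. All 6 urothelial and all 6 smooth muscle marker genes were well above background on every array, and so were all 5 markers shared by leukocytes. In whole tissue, fewer cells of a type and less RNA per cell cannot be told apart.

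MHC class II molecules sit on the surface of dendritic cells, macrophages and B cells and show peptides of swallowed proteins to CD4+ T cells. An alpha and a beta chain form the peptide groove, and the invariant chain (Cd74) fills it during assembly. In endosomes the protease cathepsin S (Ctss) trims the invariant chain, and the H2-DM dimer then exchanges the last fragment for an antigenic peptide. Ciita is the coactivator that switches class II promoters on. It does not bind DNA itself but is held by the factors on the X and Y boxes of these promoters, among them the RFX complex and NF-Y.

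The promoters are shown because the genes of class II chains share these boxes and Ctss does not belong to that gene family. Of the 8 members, 5 have a promoter in the RefSeq table (GRCm38.p6), which holds 32851 windows from 250 bases before to 50 bases after a gene's start. With the other class II chain genes, 9 of 13 genes matched. H2-Ab1, Cd74, Ciita and H2-Ea have no entry. Windows were searched on both strands for TGATTGG (the core of the Y box), AGNAACTGA (an X box core), TGACGTCA (a CRE) and GAAANNGAA (a pair of IRF half-sites). The runs below go from 120 to 11 bases before the start of 3 members with a match, of H2-Ob, a chain gene whose signal is described further on, and of Ctss. Capitals mark a match to any of the 4 motifs, and no matches overlap.

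H2-Aa: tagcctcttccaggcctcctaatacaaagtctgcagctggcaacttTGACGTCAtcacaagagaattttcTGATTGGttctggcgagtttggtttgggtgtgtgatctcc
H2-Eb1: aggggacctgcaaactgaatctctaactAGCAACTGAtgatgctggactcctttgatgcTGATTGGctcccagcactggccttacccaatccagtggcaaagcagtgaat
H2-DMb1: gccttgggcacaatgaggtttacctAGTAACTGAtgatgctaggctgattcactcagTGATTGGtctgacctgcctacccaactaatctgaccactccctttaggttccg
H2-Ob: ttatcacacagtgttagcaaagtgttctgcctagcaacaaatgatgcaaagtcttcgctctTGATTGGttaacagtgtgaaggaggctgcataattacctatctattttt
Ctss: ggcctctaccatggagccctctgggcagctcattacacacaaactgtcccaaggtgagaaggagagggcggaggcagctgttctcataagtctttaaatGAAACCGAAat

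On GRCm38.p6 these runs are chr17:34287834-34287943 on the minus strand (H2-Aa), chr17:34305747-34305856 on the plus strand (H2-Eb1), chr17:34153071-34153180 on the plus strand (H2-DMb1), chr17:34238785-34238894 on the plus strand (H2-Ob) and chr3:95526666-95526775 on the plus strand (Ctss). The Y box core was found in 7 of the 8 class II chain genes with a window, in every case on the gene's own strand, and its first base lay 45 to 102 bases before the start. Over all promoters in the table, 7.82% held it. It begins 50 bases before the start of H2-Aa, 61 before H2-Eb1, 63 before H2-DMb1 and 59 before H2-Ob. Neither H2-DMa nor Ctss had these letters in its window. The X box core (2.03% of all promoters) was found in H2-Eb1, H2-DMb1 and H2-Eb2, the CRE (1.79%) in H2-Aa, and the IRF pair (8.56%) in Ctss, 21 bases before its start. A match of letters is a description and not evidence of binding.

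None of the 8 genes was called between AGED and MAT bladders in either sex. A call needed an adjusted p under 0.05 (limma, Benjamini-Hochberg over all genes tested) and a 2-fold change. Over all genes, 0.851% were called in males and 0.190% in females. At an unadjusted p under 0.05, 1 of the 8 genes passed in males (H2-Eb1) and 0 passed in females, against 16.2% and 10.5% of all genes. The methods' t-test, unadjusted and with a 2-fold limit, called 0 of the 8 in each sex. Of all 26781 genes it called 496 in males and 394 in females. The largest change of a member was 1.74-fold (Ciita in males), so no test with a 2-fold limit could call a member on these changes. In males the 5 class II chain and H2-DM genes and Cd74 had lower means in AGED mice, while Ciita and Ctss had higher means, under each scaling tried. In females all 8 changes were closer to 0, those of Cd74 and Ctss only by a little. The AGED and MAT values of a sex overlapped for all 8 genes in both sexes. Over all genes, 7.82% did not overlap in males and 10.8% did not in females. The values of single mice are given per gene below.

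H2-Aa encodes the alpha chain of the I-A molecule. Its signal was 3.10, 2.98, 2.60 and 3.08 in MAT males (replicates 1 to 4) and 4.59, 2.31, 0.81 and 2.16 in AGED males. The highest and the lowest of all 16 values were both in AGED males, and the AGED values spanned 13.7-fold where the MAT values spanned 1.41-fold. In females it was 2.92, 2.93, 3.31 and 2.88 at MAT and 2.29, 3.31, 2.78 and 3.90 at AGED. The AGED females again lay on both sides of the MAT females. The age change of H2-Aa was -0.47 ± 0.56 (SE) in males, with an adjusted p of 0.705. In females it was 0.061 ± 0.56 (adjusted p = 0.985). Its 95% interval in males, -1.67 to 0.73, still holds a 2-fold fall.

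H2-Ab1 encodes the beta chain of I-A. It read 6.62, 6.62, 6.23 and 6.77 in MAT males and 6.59, 6.26, 5.05 and 5.99 in AGED males. AGED male replicate 3 lay below all other males. MAT females read 6.61, 6.62, 6.83 and 6.73, and AGED females 5.83, 7.06, 6.22 and 6.92. Of the AGED females, 2 were above every MAT female and 2 below. The age change was -0.59 ± 0.30 in males and -0.19 ± 0.30 in females, with adjusted p of 0.354 and 0.896. The other H2-Ab1 probe had the same signs, at -0.70 and -0.33, and the probes had a Pearson correlation of 0.97 over the 16 arrays.

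H2-Eb1, the beta chain of the I-E molecule, read 5.98, 6.03, 5.63 and 6.12 in MAT males and 6.16, 5.42, 4.59 and 5.07 in AGED males. Of the AGED males, 3 were below every MAT male and replicate 1 was above them all. MAT females read 6.03, 5.97, 6.32 and 6.10, and AGED females 5.53, 6.21, 5.74 and 6.48. The age change in males was -0.63 ± 0.28, the smallest p of the 8 genes before adjustment (0.0379, and 0.275 after adjustment in limma), with an exact two-sided permutation p of 0.143. In females it was -0.11 ± 0.28 (adjusted p = 0.938). With 4 arrays against 4 the test cannot give an exact p below 0.0286. H2-Ea, the alpha chain of I-E, had no probe matched by accession, and C57BL/6 mice are known not to make this chain.

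H2-DMa and H2-DMb1 encode the H2-DM dimer, the peptide exchange factor of the endosome. H2-DMa read 0.41, 0.38, -0.08 and 0.57 in MAT males and 1.07, 0.03, -1.36 and -0.27 in AGED males. H2-DMb1 read 2.35, 2.23, 1.93 and 2.34 in MAT males and 3.09, 1.90, 0.74 and 2.11 in AGED males. Of the 8 males, AGED replicate 1 was the highest and AGED replicate 3 the lowest for both genes. In females H2-DMa read 0.41, 0.52, 0.81 and 0.37 at MAT and -0.19, 0.63, 0.24 and 1.09 at AGED, and H2-DMb1 read 2.28, 2.40, 2.75 and 2.35 at MAT and 2.01, 2.72, 2.38 and 3.22 at AGED. AGED female replicate 1 was the lowest female and AGED female replicate 4 the highest for both. The age changes in males were -0.45 ± 0.39 for H2-DMa (adjusted p = 0.591) and -0.26 ± 0.37 for H2-DMb1 (adjusted p = 0.762). In females they were -0.082 ± 0.39 and 0.14 ± 0.37 (adjusted p = 0.973 and 0.946).

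Cd74, the invariant chain, had the most negative age change of the 8 genes in both sexes, though neither was called. It read 4.68, 4.66, 4.19 and 5.02 in MAT males and 4.88, 4.04, 2.81 and 3.80 in AGED males, where 3 of the 4 lay below every MAT male. MAT females read 4.93, 4.96, 5.16 and 5.26, and AGED females 3.58, 4.88, 4.55 and 4.98. Here 3 of the 4 AGED females were below every MAT female, with replicate 1 the lowest. The age change was -0.76 ± 0.37 in males (adjusted p = 0.329, 1.69-fold) and -0.58 ± 0.37 in females (adjusted p = 0.629, 1.49-fold). The 95% interval in males was -1.54 to 0.033. Without AGED female replicate 1 the change in females was -0.27.

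Ciita and Ctss went the other way in the means. Ciita, the coactivator, read -4.03, -4.51, -4.16 and -4.03 in MAT males and -3.25, -2.26, -4.0 and -4.04 in AGED males. It read -3.61, -3.72, -3.42 and -3.68 in MAT females and -4.16, -2.42, -3.72 and -3.41 in AGED females. Replicate 2 was the highest array of each AGED group, and these were different mice on different slides. The age change of Ciita was 0.80 ± 0.37 in males and 0.18 ± 0.37 in females, with adjusted p of 0.308 and 0.923. Without AGED male replicate 2 the change in males was 0.42.

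Ctss, the protease cathepsin S, read 4.72, 4.85, 4.60 and 4.69 in MAT males and 6.71, 4.51, 5.30 and 4.82 in AGED males. MAT females read 4.68, 4.83, 4.92 and 4.38, and AGED females 4.81, 5.58, 5.09 and 5.62. Of the AGED females 3 were above every MAT female, and of the AGED males 2 were above every MAT male. The age change was 0.62 ± 0.35 in males and 0.57 ± 0.35 in females, with adjusted p of 0.400 and 0.620 and exact two-sided permutation p of 0.286 and 0.0857. Without AGED male replicate 1, whose Ctss signal was the highest of all 16, the change in males was 0.16.

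**Figure D1:**
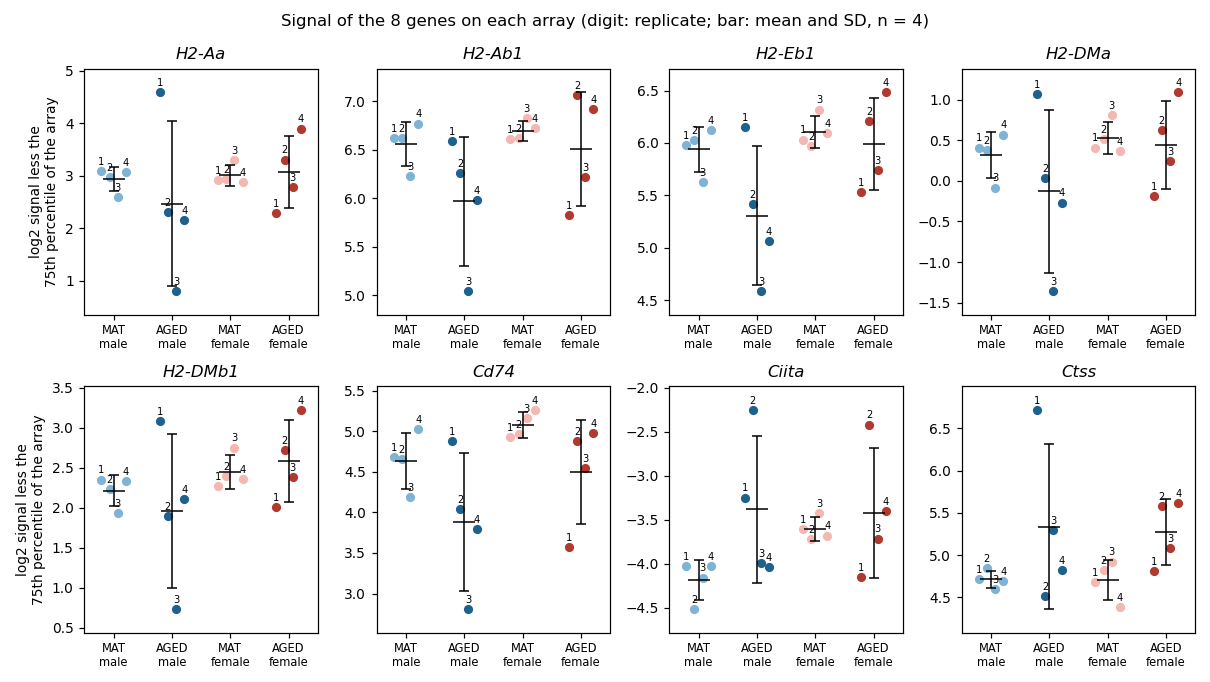
Log2 signal less the 75th percentile of the array (y axis, own range for each gene) of the 8 genes on all 16 arrays in the 4 groups, with the replicate number beside each point and the mean and SD (n = 4) in black. For H2-Aa the AGED males run from 0.81 to 4.59 around MAT males at 2.60 to 3.10, and in every panel the AGED and MAT points of a sex overlap.

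The median change of the 8 genes was -0.46 in males, against 0.0015 for all genes tested, and -0.010 in females, against -0.0063 for all genes tested. In males the sign of this median rested on 1 array: it was 0.022 without AGED male replicate 3 and -0.82 without AGED male replicate 1. In females it ran from -0.25 to 0.22 as each array was left out. The difference of the age changes between the sexes was called for 0 of the 8 genes (0.149% of all genes at an adjusted p under 0.05). It ran from -0.53 for H2-Aa to 0.61 for Ciita, with adjusted p of 0.726 or more for every gene. A p that misses the threshold does not show that the sexes are alike, and the 95% interval of this difference for H2-Aa was -2.22 to 1.16.

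**Figure D2:**
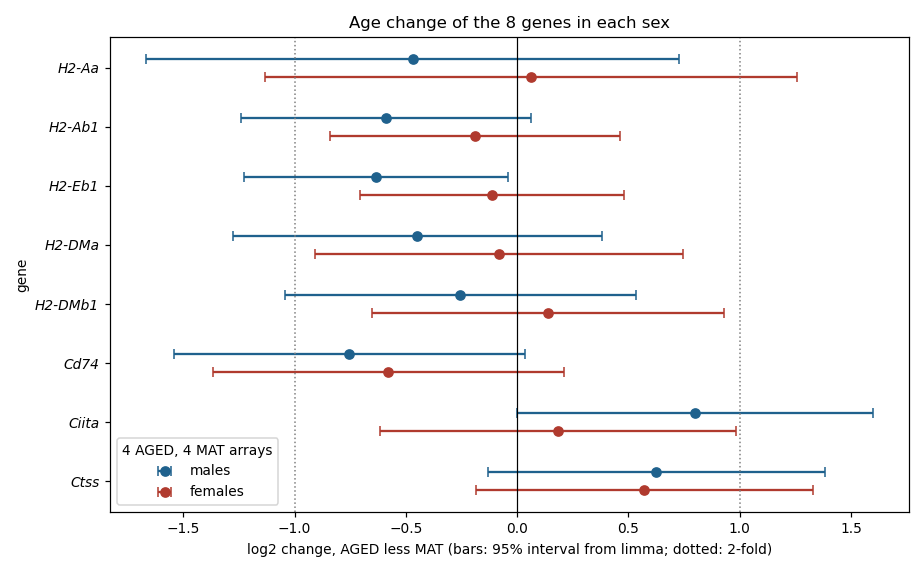
Change of each gene in log2 signal, AGED less MAT (x axis), in males (blue) and females (red), with 95% intervals from limma (4 AGED and 4 MAT arrays per sex) and dotted lines at a 2-fold change. The 6 upper genes have lower means in AGED males, from -0.26 to -0.76, and in both sexes the interval of every gene except male H2-Eb1 includes 0, male Ciita only just, with a lower end of -0.00047.

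The spread among AGED mice was wider than among MAT mice. The SD of H2-Aa was 1.57 in AGED males against 0.23 in MAT males, and that of Ctss 0.97 against 0.10. Cd74 had an SD of 0.85 against 0.34 in males and 0.64 against 0.16 in females. The AGED SD was over 2 times the MAT SD for 8 of 8 genes in males (36.9% of all genes) and for 7 of 8 in females (37.6% of all genes), the exception being Ctss in females at 1.66 times. The median ratio of the 8 genes was 3.61 in males and 3.15 in females, against 1.53 and 1.60 over all genes tested. These ratios carry no test, and the 8 genes share their arrays and move together, so they are not 8 separate observations. With quantile or median scaling, the authors' log2 values or normexp background correction the count stayed at 7 or 8 in males and at 7 in females. It was 6 to 8 in males and 5 to 8 in females as each array was left out.

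**Figure D3:**
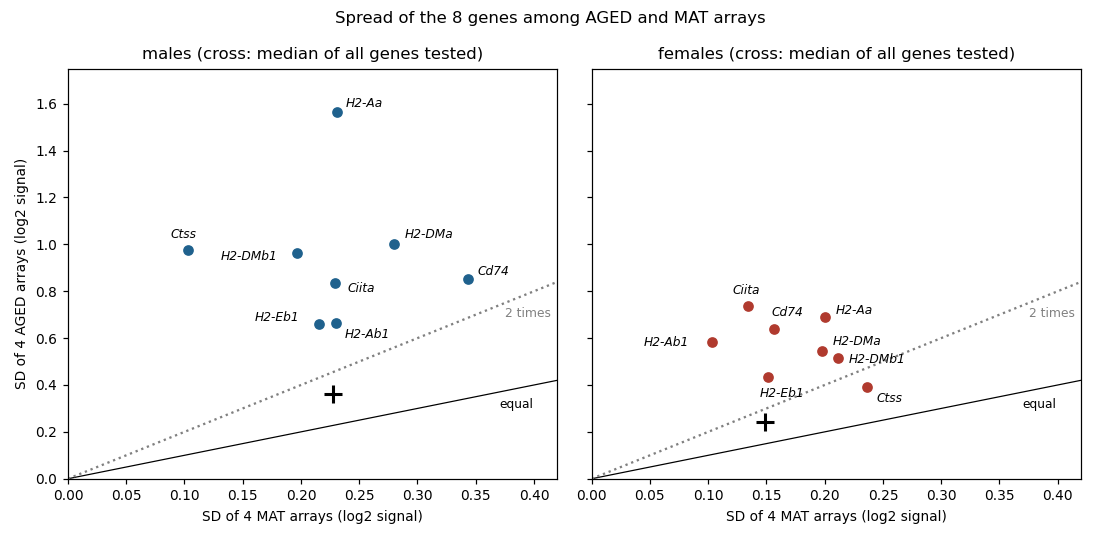
SD of the log2 signal among the 4 AGED arrays (y axis) against that among the 4 MAT arrays (x axis) for each gene, in males (left) and females (right). Lines mark equal SDs and an AGED SD of 2 times the MAT SD, and the cross is the median SD of all genes tested. All 8 genes in males and 7 in females lie above the dotted line, and Ctss in females lies below it.

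The deviations of the single mice ran through the class II genes together. The 6 genes of the class II molecule and its loading (H2-Aa, H2-Ab1, H2-Eb1, H2-DMa, H2-DMb1 and Cd74, grouped by role) were all above the mean of the MAT males in AGED male replicate 1, by 0.63 on average. All 6 were below it in AGED male replicates 2, 3 and 4, by averages of -0.44, -1.66 and -0.63. In AGED male replicate 3 the 6 deviations ran from -2.13 to -1.35. In AGED females all 6 were below the MAT female mean in replicates 1 and 3, by averages of -0.80 and -0.32, and 5 of 6 were above it in replicates 2 and 4, by averages of 0.16 and 0.46. MAT male replicate 3 was also low in all 6 genes, by an average of -0.35.

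Over the 16 arrays the 15 pairs of these 6 genes had Pearson correlations of 0.81 to 0.97 (median 0.92) and Spearman correlations of 0.69 to 0.96. With the group means removed the Pearson correlations were 0.85 to 0.98. They were 0.84 to 0.98 among the 8 male arrays and 0.55 to 0.98 among the 8 female arrays. Without AGED male replicates 1 and 3, the male arrays highest and lowest in the mean of the 6 genes, they were 0.67 to 0.97 over the remaining arrays of both sexes. The points share arrays, tissue and the scaling of each array, so the correlations are given as a description with no p. As a background, the mean of the 6 genes had a median correlation of -0.085 with the 15925 other genes with a symbol, and 0.471% of those genes had a correlation over 0.8.

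Ciita and Ctss followed the other 6 genes less closely. Over the 16 arrays Ciita had correlations of 0.21 to 0.33 with them and Ctss 0.06 to 0.51. With the group means removed these were 0.38 to 0.68 for Ciita and 0.46 to 0.74 for Ctss. In AGED male replicate 3, where the class II chains were lowest, Ctss was 0.59 above the MAT male mean and Ciita 0.19 above it. H2-Aa, H2-Eb1 and H2-DMb1, the 3 members with a Y box core in the windows printed above, are among the 6 that moved together. H2-DMa had no such match and a correlation of 0.97 with H2-DMb1, and H2-Ab1 and Cd74 had no window. The search was for exact letters, so a window without a match may still hold a Y box. The part of the box in these correlations was not tested.

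**Figure D4:**
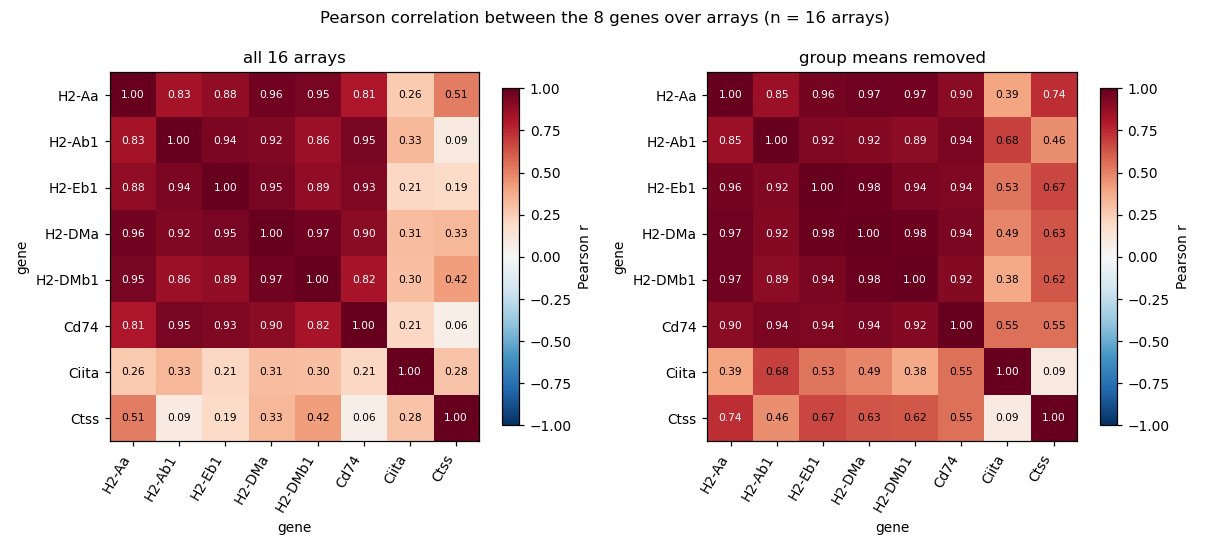
Pearson correlation between each pair of the 8 genes (rows and columns) over the 16 arrays, as measured (left) and with the mean of each group removed (right). The 6 class II chain, H2-DM and Cd74 genes form a block of 0.81 to 0.97 on the left, and Ciita and Ctss have correlations of at most 0.51 with that block.

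The 5 genes outside the list with the highest Pearson correlation to the mean of the 8 members over the 16 arrays were Slamf8 (0.94), Lrmp (0.93), Slc2a6 (0.93), Evi2a (0.92) and Selplg (0.91), out of 15925 genes with a symbol. With the group means removed these were 0.96, 0.93, 0.93, 0.96 and 0.94.

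Markers of the cells that carry class II were set beside the 6 genes. For the dendritic cell list (8 of 9 genes tested, 6 above background on every array, none at background on all) the signal summed over the list was 4.00 to 5.43 in MAT males, 2.05 to 4.41 in AGED males, 6.41 to 9.09 in MAT females and 4.13 to 8.41 in AGED females, in units of the array's 75th percentile. The mean of the list had a Pearson correlation of 0.77 with the mean of the 6 genes over 16 arrays and of 0.71 with the group means removed. The Spearman correlation over the 16 arrays was 0.53. The mean of the list was lowest in AGED male replicate 3 (-2.52), the array lowest in class II. In AGED male replicate 1, the male array highest in class II, it was -1.69, below the MAT males at -1.46 to -1.06. The mean of the list had a correlation of -0.20 with Ctss, and of 0.10 with the group means removed.

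For the macrophage list (11 of 12 genes tested, all 11 above background on every array) the summed signal was 89.1 to 109 in MAT males, 98.9 to 202 in AGED males, 86.3 to 99.2 in MAT females and 79.7 to 144 in AGED females. Its mean had a correlation of 0.82 with Ctss and of 0.56 with the 6 genes. With the group means removed these were 0.80 and 0.83, the second above the 0.71 of the dendritic cell list. The 5 markers shared by leukocytes summed to 14.3 to 17.8 in MAT males, 8.90 to 39.2 in AGED males, 16.9 to 28.8 in MAT females and 14.5 to 38.5 in AGED females. Their mean had a correlation of 0.80 with the 6 genes, and of 0.92 with the group means removed. It was highest of the AGED males in replicate 1 (1.94) and lowest in replicate 3 (0.07), as the class II genes were. The T cell list (7 of 7 tested, all above background on every array) summed to 2.90 to 4.89 in MAT males, 3.30 to 23.2 in AGED males, 6.36 to 8.85 in MAT females and 3.74 to 10.7 in AGED females. Its mean had a correlation of 0.63 with the 6 genes, and of 0.83 with the group means removed. The part of these cells in the spread of the class II genes was not tested.

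The B cell list (7 of 8 tested, 2 above background on every array) summed to 0.51 to 3.83 in MAT males, 0.63 to 2.82 in AGED males, 3.08 to 10.6 in MAT females and 0.95 to 6.74 in AGED females. Its mean had a correlation of 0.47 with the 6 genes, and of 0.41 with the group means removed. By age, 5 of its 7 genes had higher means in AGED than in MAT males (median 0.42, and 4 of 7 with normexp). In females 7 of 7 had lower means in AGED mice (median -0.45). None of the dendritic cell, macrophage, B cell, plasma cell, T cell or leukocyte markers was called by age in either sex.

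The wider pathway was described by 7 lists with 35 genes, of which 34 were tested. The age comparison called 0 of the 34 in males and 0 in females, and at an unadjusted p under 0.05 it gave 7 in males and 3 in females, against 16.2% and 10.5% of all genes. In males 16 of the 34 had higher and 18 lower means in AGED mice (median -0.039), and in females 14 and 20 (median -0.10). By list, the other class II chains were lower in AGED means for 4 of 4 genes in both sexes, with medians of -1.15 in males and -0.58 in females, except that with normexp background correction H2-Eb2 was 0.13 in males. The transcription factors of class II promoters had 4 of 7 lower in males and 6 of 7 in females, and 2 and 5 with normexp. The proteases and processing genes had 4 of 8 lower in males (5 with quantile or median scaling or normexp) and 3 of 8 in females, and the interferon gamma genes 1 of 7 in males (2 with median scaling or normexp) and 3 of 7 in females. The turnover genes had 2 of 3 lower in males and 1 of 3 in females (2 with quantile scaling), the costimulatory genes 3 of 3 and 1 of 3, and the class II receptors of T cells 0 of 2 and 2 of 2.

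Within each list the gene with the largest change was taken. H2-Ob is the beta chain of H2-DO, a brake on H2-DM that is best known in B cells. It had the largest change of all, at -1.81 ± 0.53 in males by its brightest kept probe (adjusted p = 0.106, exact p = 0.0571). It read -2.43, -2.49, -1.71 and -1.20 in MAT males and -2.93, -2.45, -5.17 and -4.52 in AGED males, where replicate 3 was not well above background. AGED males overlapped MAT males only in replicate 2. Cd83, a membrane protein of mature dendritic cells that slows class II turnover, read 0.42, 1.99, 0.34 and 1.90 in MAT males and 0.12, -0.0049, -1.47 and 0.10 in AGED males. All AGED males were below all MAT males, and the change was -1.47 ± 0.46 (adjusted p = 0.129, exact p = 0.0286, the smallest the design allows). In males 2 of the 34 pathway genes did not overlap, against 7.82% of all genes. Each gene here was taken for the size of its change, so its exact p comes after that choice. In females the change of Cd83 was 0.026 ± 0.46.

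Ifng, the cytokine that induces Ciita, had the largest change of its list, at 0.81 ± 0.97 in males (adjusted p = 0.707). It read -3.95, -5.41, -4.25 and -2.97 in MAT males and 0.43, -3.92, -5.42 and -4.43 in AGED males, where replicate 3 was not well above background. Its mean rested on AGED male replicate 1, the male array with the highest Ctss signal and the highest mean of the 6 class II genes, and the other 3 AGED males lay within or at the edge of the MAT range. Ciita was highest in AGED male replicate 2 (-2.26) and read -3.25 in replicate 1. A link between Ifng and these genes was not tested. The other leading genes had changes in males of -0.58 ± 0.26 for Nfya, a subunit of the factor that binds the Y box (adjusted p = 0.289), -0.39 ± 0.22 for the cathepsin inhibitor Cst3 (0.395), -0.40 ± 0.21 for the costimulatory ligand Cd80 (0.360) and 0.68 ± 0.43 for Lag3, a class II receptor on T cells (0.451).

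Class I presentation, the pathway for peptides of the cell's own proteins, was listed beside class II. None of its 10 genes was called by age in either sex. All 10 had higher means in AGED females (median 0.44) and 7 of 10 in AGED males (median 0.17, and 8 of 10 with normexp). The mean of the list had a correlation of 0.86 with Ctss and of 0.54 with the 6 genes of the class II molecule. With the group means removed these were 0.87 and 0.82.

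Males and females were also compared at each age. None of the 8 members was called at MAT (0.164% of all genes) or at AGED (3.11% of all genes). At AGED the 6 genes of the class II molecule had lower means in males, with differences of -0.54 for H2-Ab1 to -0.68 for H2-Eb1 and adjusted p of 0.134 to 0.531, while Ciita and Ctss differed by 0.040 and 0.064, which turned to -0.0086 for Ciita with median scaling and to -0.060 and -0.36 for Ctss with quantile scaling and normexp. Without AGED male replicate 1, H2-Aa (-1.31, adjusted p = 0.0319) and H2-DMb1 (-1.0, adjusted p = 0.0459) were called lower in AGED males. Leaving out this array also raised the calls over all 26781 genes from 834 to 1254, with 758 of the 1254 lower in males. At MAT these 6 genes differed between the sexes by -0.44 for Cd74 to -0.071 for H2-Aa. Ciita was lower in every MAT male than in any MAT female (-0.57 ± 0.37, adjusted p = 0.523), the only 1 of the 8 members whose values did not overlap there. Over all genes 18.4% did not overlap between the sexes at MAT, and 4.42% did not overlap with males lower.

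In the wider pathway, 0 of the 34 genes tested were called between the sexes at MAT (0.164% of all genes). Between AGED males and AGED females 4 of the 34 were called, all lower in males. Over all genes 3.11% were called there, 503 of 834 of them lower in males. The 4 pathway genes are named because of this result and were chosen after their values were seen. H2-Ob read -2.11, -0.59, -1.02 and -0.91 in AGED females, all above the AGED males given above. It differed by -2.61 ± 0.53 (adjusted p = 0.00915). With only probes above background on all 16 arrays another H2-Ob probe stood for the gene, and the difference was -1.33 (adjusted p = 0.0623). With the mean of the kept H2-Ob probes it was -1.97 (adjusted p = 0.0219). Cd83 read 0.59, 1.63, 1.38 and 2.02 in AGED females, also above every AGED male, and differed by -1.72 ± 0.46 (adjusted p = 0.0317).

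H2-DMb2, the second beta chain of H2-DM, read -5.88, -4.98, -7.38 and -6.53 in AGED males, where only replicate 2 was well above background, and -5.12, -3.35, -3.60 and -3.68 in AGED females. It differed by -2.26 ± 0.47 (adjusted p = 0.0102). With a floor under low signals the difference was -1.28 (adjusted p = 0.0474), and with normexp it was -0.25 and not called (adjusted p = 0.370). H2-Oa, the alpha chain of H2-DO, read -3.27, -0.87, -3.03 and -2.45 in AGED males, with replicate 1 not well above background, and -1.79, -0.74, -0.38 and -0.90 in AGED females, a difference of -1.45 ± 0.42 (adjusted p = 0.0431). This call was the least stable of the 4: it was lost with no filter on dim probes, with the floor under low signals and with array weights, and on leaving out each of 12 of the 16 arrays. For both genes only AGED male replicate 2 lay within the range of the AGED females.

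At MAT, H2-Ob, H2-Oa and H2-DMb2 differed by -1.27, -1.22 and -1.36 (adjusted p = 0.303, 0.212 and 0.210). They were among 10 of the 34 pathway genes whose values did not overlap between the sexes at MAT (18.4% of all genes), 8 of them lower in males (4.42% of all genes), with H2-Eb2 at -1.97 and Lag3 at -1.47 the most negative. At AGED 5 of the 34 did not overlap (13.7% of all genes), 3 of them lower in males (4.77% of all genes). The B cell list had lower means in males for 7 of 7 genes at both ages, with medians of -1.59 at MAT and -0.95 at AGED (for 4 of 7 at AGED with normexp). Other lists did the same at MAT: plasma cell (4 of 4, median -2.85), T cell (7 of 7, -1.37) and leukocyte (5 of 5, -0.55). At AGED the plasma cell and leukocyte lists were again lower for every gene, and the T cell list for 4 of 7 (3 with normexp). The macrophage list was lower for 3 of 11 genes at MAT and 8 of 11 at AGED. Of the 8 dendritic cell genes tested, 2 (Itgax and Clec9a) were called lower in AGED males. Over all genes 3.11% were called there, 503 of 834 of them lower in males. The part of these cells in the difference of H2-DO and H2-DMb2 was not tested, and sex cannot be told apart from slide. The count of 4 was 2 without AGED male replicate 3 and without AGED female replicate 2, 3 or 4 (H2-Ob and H2-DMb2), and 1 (Cd83) when only probes above background on all 16 arrays were kept.

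**Figure D5:**
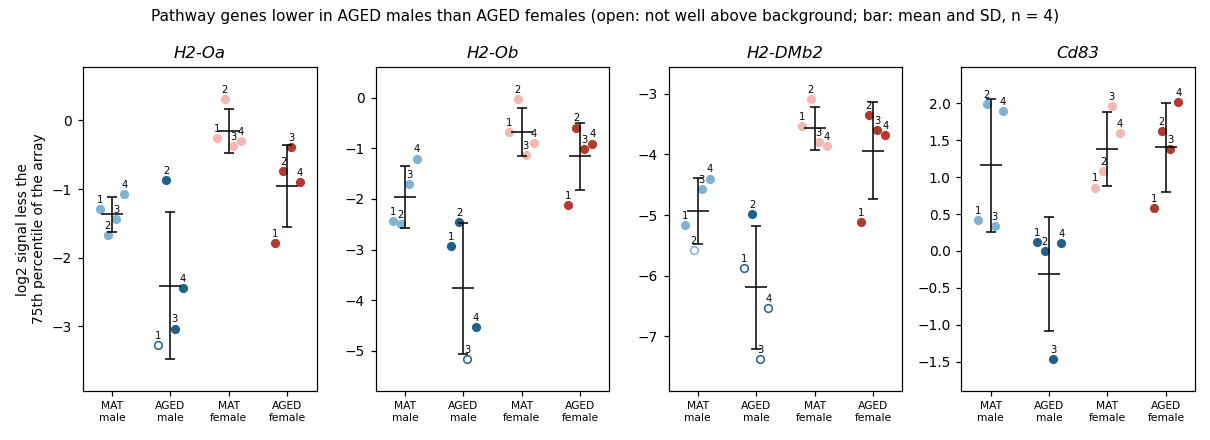
Log2 signal less the 75th percentile of the array (y axis, own range for each gene) for the 4 pathway genes called lower in males than in females at AGED, with the replicate number beside each point, open points for arrays not well above background, and the mean and SD (n = 4) in black. For H2-Ob and Cd83 every AGED male lies below every AGED female, and for H2-Oa and H2-DMb2 only AGED male replicate 2 reaches into the range of the AGED females.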

How the data were processed

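The authors extracted each array with Agilent Feature Extraction (version 9.1 per the labels, 10.7.3.1 per the file headers, which also name mm9) and deposited an intensity per spot, background-subtracted by that software and not scaled between arrays. They also deposited a table of log2 values, which the check against the scanner intensities found to be log2 of the processed intensity, scaled by 1 constant for each array and centred per probe (largest median difference 0.0130).

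From the processed intensities, log2 values were taken, flagged outlier spots were dropped (399 probe values; 0 spots were saturated), replicate spots averaged, and each array scaled by subtracting its 75th percentile over probes. Of 55681 probes, 26582 were named through RefSeq accessions (GRCm38.p6, for names and promoters only). Probes well above background on at least 4 of 16 arrays were kept (36972), and the probe with the highest mean stood for a gene (26781 genes). Group means were fitted with limma (version 3.58.1, R 4.3.3) in 1 model over 16 arrays (12 residual degrees of freedom), with Benjamini-Hochberg adjustment over all genes; the difference of age changes had no fold limit. The fit was tested on simulated data. Exact permutation tests were two-sided. Tables and figures were made with Python 3.11.15. The number of arrays limits the precision. The sources name 1 mouse per array.

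Members and lists were chosen with earlier results of these data known. Named were all members, the genes of other lists that were called by age or differed between the sexes in their age change (none), the gene of each pathway list with the largest age change, and the 5 genes most like the members. Genes called between the sexes were added after the values were seen. Alternatives are listed in the closing section. Normexp used the median spot signal, with an offset of 50, in place of the planned mean. The alternatives for the SD counts and for the sex comparison of pathway genes were chosen after seeing the data.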

Additional observations from a re-analysis of the deposited data

Results flagged for a closer look

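Within groups of 4, a sample was marked when its gap to the nearest other value passed Dixon's 95% limit as a share of the group's range. Of 68 groups examined (the 8 members and 9 named pathway genes in 4 groups each), 4 were marked, or 5.88%, and chance marks about 1 in 20. Among the members, 1 of 32 was marked: H2-Aa in MAT female replicate 3, at 3.31 against 2.88 to 2.93 in the other MAT females (gap over range 0.884).

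Among the pathway genes, H2-Oa was marked in MAT female replicate 2 (0.32 against -0.37 to -0.26, ratio 0.842). Cd83 was marked in AGED male replicate 3 (-1.47 against -0.0049 to 0.12, ratio 0.924), the array with the lowest class II signals. Cd80 was marked in MAT male replicate 4 (0.34 against 0.04 to 0.08, ratio 0.866).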

How the results depend on the processing

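The alternatives changed the scaling (quantile, median, the authors' values), the background correction (normexp), the filter on dim probes (none, at least 8 or all 16 arrays, or a floor under low signals), the summary of a gene's probes, the model (each sex alone, a variance trend, array weights, the replicate block, the slide as a block) and the test (2 other thresholds, and the methods' t-test unadjusted and adjusted), and left out each array in turn. Under all that could be fitted, 0 members were called by age in either sex and 0 differed in age change between the sexes. The slide block only repeats the main fit, since slide equals sex. Fits with the main log2 changes and a 2-fold limit could not call a member by age. Over the other settings the median change of the members was -0.52 to -0.32 in males and -0.038 to 0.045 in females. As arrays were left out it was -0.82 to 0.022 and -0.25 to 0.22, so its sign turned in both sexes.

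Of 544 changes of single members under the alternatives, 534 kept their sign and call and 10 turned sign, all on leaving out 1 array. Many could not turn, as leaving out an array of 1 sex leaves the other sex unchanged. Other thresholds, tests and filters on dim probes reuse the same log2 changes. The 534 is therefore no measure of stability. In males the range over left-out arrays was -1.18 to 0.083 for H2-Aa and -0.63 to 0.15 for H2-DMb1, positive only without AGED male replicate 3. In females it was -0.37 to 0.037 for H2-Ab1 and -0.28 to 0.040 for H2-Eb1, positive only without AGED female replicate 1. For H2-DMa it was -0.30 to 0.13, positive without AGED female replicate 1 or MAT female replicate 3. For H2-Aa it was -0.21 to 0.32, negative without AGED female replicate 2 or 4, for H2-DMb1 -0.073 to 0.33, negative only without AGED female replicate 4, and for Ciita -0.15 to 0.43, negative only without AGED female replicate 2.

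Between AGED males and females, 0 members were called, and 0 to 2 as arrays were left out (2 without AGED male replicate 1). Of pathway genes, 0 were called by age in males, but 3 with normexp (Cd80, Cst3 and H2-Ob), 4 without adjustment, 2 by the methods' t-test without adjustment, and 0 to 2 as arrays were left out (2 without AGED male replicate 2). Between the sexes 4 were called at AGED, but 1 with probes above background on all 16 arrays, 2 with array weights, 3 with no filter or the floor, 6 with normexp (without H2-DMb2, and with Cd80, Ifi30 and Sppl2a), and 2 to 5 as arrays were left out. At MAT 0 were called, but 5 with array weights, 5 without adjustment, and 0 to 1 as arrays were left out (1 without AGED male replicate 1). Some counts over all genes rose too. In males they were 753 with normexp and 751 without adjustment, from 228. Between the sexes at AGED they were 1146 with normexp and 1254 without AGED male replicate 1, from 834. At MAT they were 612 with array weights and 690 without adjustment, from 44. The cause was not tested.

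Same-numbered samples did not deviate together (correlations of -0.148 to 0.066), so the numbers were not taken as pairs. The fit with a replicate block called 0 members in either sex and 4 pathway genes at AGED between the sexes, and over all genes 184 in males and 3 in females, against 228 and 51 without it. Over all genes the count in males ran from 0 to 753 over the other settings and from 123 to 377 as arrays were left out. In females it ran from 1 to 506 and from 1 to 120. Between AGED males and females it was 834, with 520 to 2547 and 612 to 1254, at MAT 44, with 17 to 690 and 17 to 116, and the difference of age changes was called for 40, with 7 to 2644 and 6 to 269. Pairs of the 6 genes had correlations of 0.77 to 0.97 with quantile scaling and 0.60 to 0.98 with normexp. Normexp moved the median of all genes to 0.12 between AGED and MAT males, 0.14 between the sexes at MAT and 0.25 at AGED, from 0.0015, 0.078 and 0.087. With 4 mice a group, the SE of a member's age change was 0.28 to 0.56.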
